A study of Mus with 12 samples.

Results

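Blood of mice that had received human mesenchymal stem cells (MSC) both under the skin and into the tail vein was compared with blood of mice given no cells. Dermatitis was induced in the same way in both groups. The study reported lower dermatitis scores and less scratching after MSC treatment, so severity was not equal between them. The comparison covers the 4352 of 25247 genes in the table whose FPKM (fragments per kilobase of gene for each 1e+06 fragments sequenced) reached 1 or more in 3 or more of the 6 libraries concerned, out of 12 in the series. All mice were BALB/c females, 6 weeks old at the start. In both groups 2,4-dinitrochlorobenzene (DNCB), a hapten that provokes an atopic dermatitis-like reaction, was applied to shaved back skin and the right ear at 1% for sensitization and at 0.5% for the later challenges. No injection is described for the DNCB group. In the scivMSC group each dose held 2000000 human umbilical cord MSC, with 50 µL placed under the skin at the side of the lesion and 50 µL in the tail vein, and doses were spread from day 13 to day 25 after the first application. The experiment ended on day 30. The study had 6 mice a group, and blood RNA was sequenced as 3 libraries a group. The Solvent group (vehicle only) and the scMSC group (the whole dose under the skin) entered the same statistical fit and are mentioned only for their levels. The labels give 12 libraries in 4 groups by group name and number. Whether each library holds the blood of 1 mouse is not stated in the sources used here. The tests measure the spread between libraries, and no count of blood cells accompanies the libraries.

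RNA from whole mouse blood comes mainly from reticulocytes, the young red cells that still hold globin messenger RNA, with smaller parts from platelets and from white cells. Neutrophils, the short-lived white cells that reach inflamed skin first, carry large amounts of a few messages, among them those of the calcium-binding proteins S100a8 and S100a9, of granule proteins and of chemoattractant receptors. Lymphocytes and monocytes add receptor and antigen presentation genes, and platelets add the transcripts left from their parent cell, the megakaryocyte. Every value in such a sample is a share of the whole, so that fewer cells of a type and less RNA per cell cannot be told apart.

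The summed estimated counts, in units of 1e+06, were 58.1 to 59.6 in DNCB and 53.1 to 54.2 in scivMSC. Haemoglobin genes took 81.2% ± 2.40 (SD) of all counts in the DNCB group and 87.3% ± 2.13 (SD) in the scivMSC group (n = 3 each), a difference of 6.16 percentage points without overlap between the groups (exact two-sided permutation p = 0.1, the smallest that 3 against 3 libraries allow). This left 10.2 to 12.9 such units for all other genes in DNCB and 5.84 to 8.17 in scivMSC. Between 4362 and 5710 genes reached an FPKM of 1 in a DNCB library, and between 1804 and 3140 in a scivMSC library, with scivMSC replicate 2 the lowest of all. Markers of 12 cell types were summed in each library. The 10 neutrophil markers summed to an FPKM of 6927, 10864 and 7020.2 in DNCB and 722, 243 and 442 in scivMSC, a gap of more than an order of magnitude between the group means. The 8 platelet markers summed to 726, 816 and 594 in DNCB and 893, 759 and 871 in scivMSC, with overlapping groups, and the 8 erythroid markers to 657528, 594482 and 614934 in DNCB and 669198, 695553 and 730975 in scivMSC, where every scivMSC library was above every DNCB library. The sums for monocytes did not overlap either, at 25 to 44.9 in DNCB and 8.83 to 10.2 in scivMSC. T cell, B cell and eosinophil and basophil marker sums were likewise lower in every scivMSC library, with sums of at most 24.6 there. NK cell marker sums overlapped, at 8.79 to 12.3 in DNCB and 4.03 to 11.8 in scivMSC. Keratinocyte and endothelial markers summed to at most 0.387 in any of the 6 libraries, and no marker of either type reached a group mean of 1. The 6 markers of fibroblasts and other mesenchymal cells summed to 4.42 to 7.53 in DNCB and 1.91 to 4.42 in scivMSC. Only 1 of these 6 was tested, and it was not called with either scaling. The set includes Thy1, which is also listed below among T cell genes, so the sum does not show mesenchymal cells. Markers of proliferating progenitors summed to at most 1.87. How far these sums account for the results below was not tested.

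**Figure D1:**
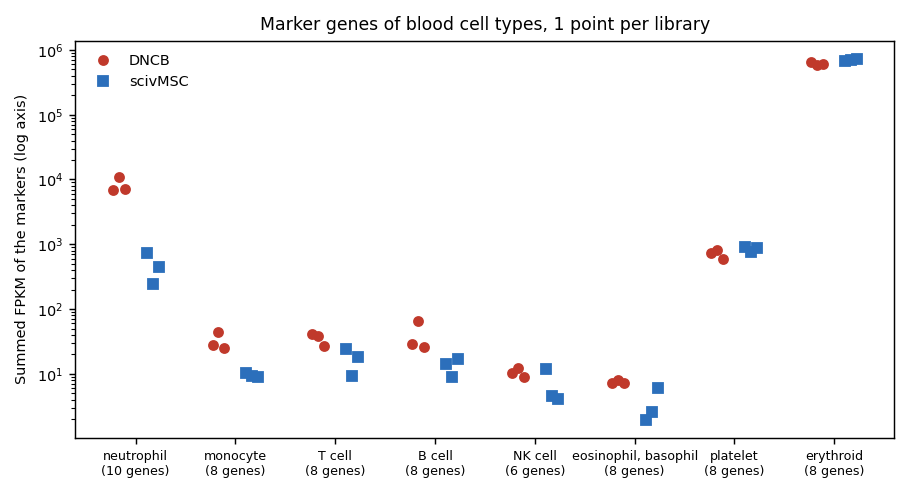
Summed FPKM of marker genes (vertical log axis) for 8 blood cell types, with 1 point per library, circles for DNCB and squares for scivMSC. The neutrophil points of scivMSC lie between 243 and 722, all below the lowest DNCB point of 6927, while the platelet points overlap.

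Which genes changed depended strongly on how the libraries were put on a common scale, so 2 scalings are given throughout. The first, total counts, is also the scale on which the FPKM values were made. The second is TMM (trimmed mean of M values), which sets the bulk of genes to no change. Genes were called that had an adjusted p (Benjamini-Hochberg, edgeR's quasi-likelihood test) under 0.05 together with a change of over 2-fold, which is 1 on the log2 scale, in either direction. With total counts, 2763 of the 4352 genes (63.5%) were called lower in scivMSC and 65 (1.49%) higher, and the median log2 fold change over all tested genes was -1.56. With TMM, 1013 genes (23.3%) were called lower and 997 (22.9%) higher, around a median of -0.01. All 1013 genes called lower with TMM were also lower with total counts, and all 65 genes called higher with total counts were also higher with TMM. The remaining calls hung on the scale. There were 1750 genes called lower with total counts only, 932 called higher with TMM only, and 592 called by neither. No gene was called in opposite directions. The 3 libraries of each group did not overlap, on the FPKM scale, for 3065 genes that were lower in scivMSC (70.4%) and 279 that were higher (6.41%).

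**Figure D2:**
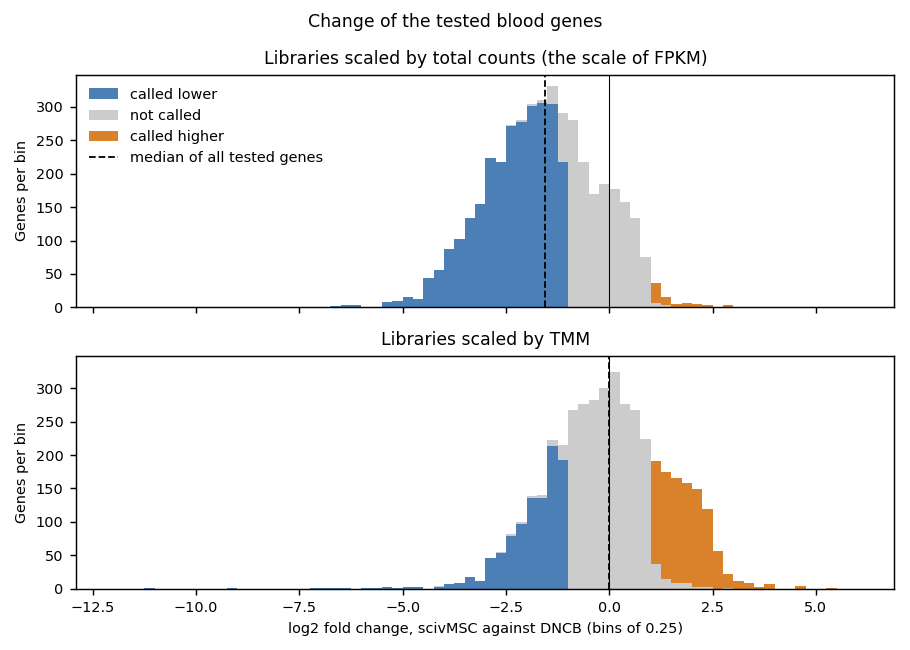
Number of tested genes (vertical axis) by log2 fold change of scivMSC against DNCB (horizontal axis, bins of 0.25), with total counts scaling above and TMM below. The dashed line marks the median of all tested genes, which sits at -1.56 in the upper panel and at -0.01 in the lower, so the split of called genes between lower (blue) and higher (orange) changes with the scale.

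The filter also bears on the balance of calls. Of the 4352 genes, 1419 reached an FPKM of 1 in DNCB libraries only, 20 in scivMSC libraries only and 2913 in libraries of both groups. A gene of the first kind could hardly be anything but lower, so the numbers below are descriptions. They are to be read against the shares over all genes. These were 63.5% lower and 1.49% higher with total counts, and 23.3% lower and 22.9% higher with TMM. A count near such a share is no result about its list. Where many members of a family are of the first kind this is stated. Among the 2913 genes present in both groups, 1367 were called lower and 54 higher with total counts, and 349 lower and 977 higher with TMM, with median log2 fold changes of -1.01 and 0.55. The genes were grouped into 47 lists of families and pathways, which hold 801 of the tested genes.

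**Figure D3:**
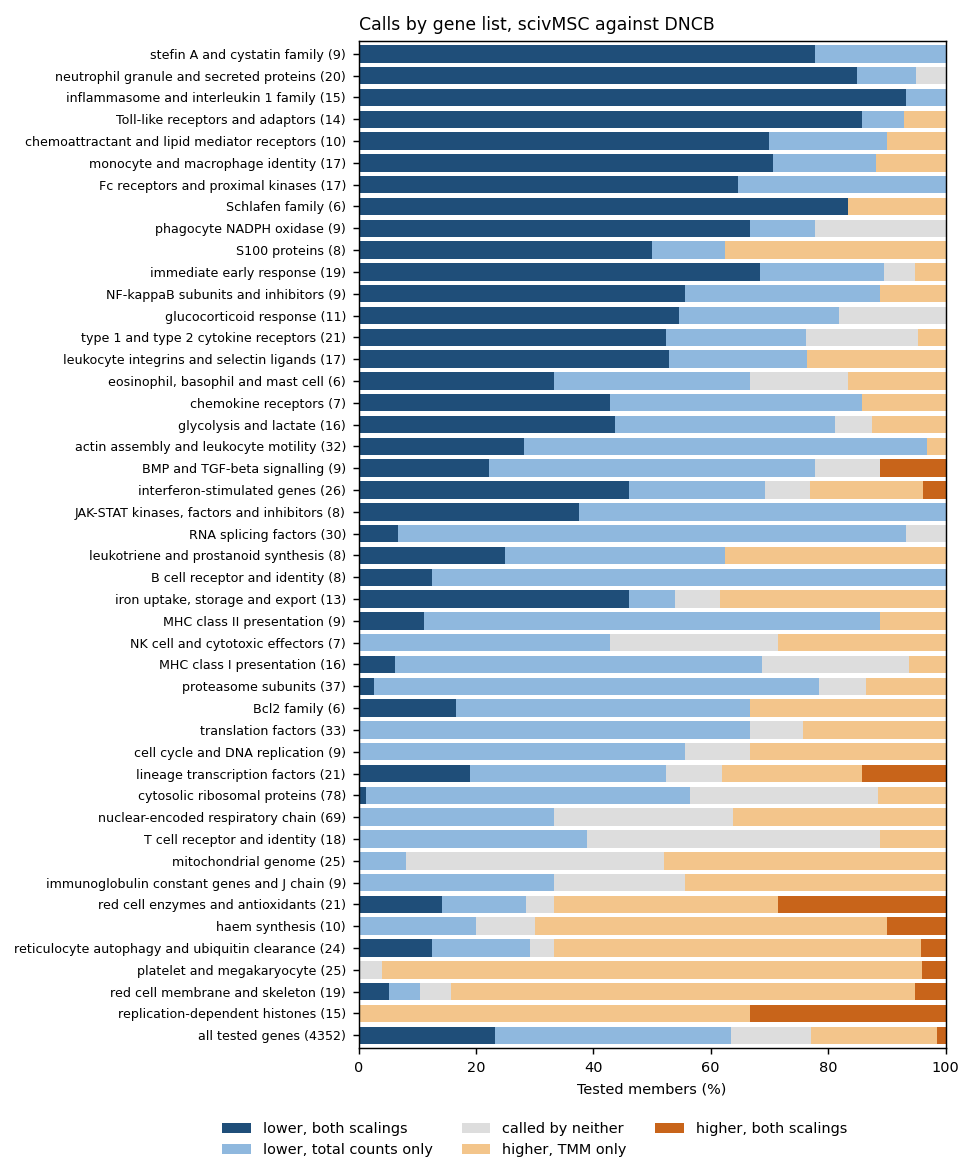
Share of tested members (horizontal axis, %) in each of 5 call classes, for the 45 lists with at least 6 tested members (number in brackets) and for all tested genes in the bottom bar. Lists are ordered by their median log2 fold change with TMM. Dark blue marks members lower with both scalings, which is 17 of 20 for neutrophil proteins, and dark orange marks members higher with both, which is 5 of 15 for histones.

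Most genes of neutrophil proteins fell with both scalings. The neutrophil marker sum given above shares genes with this list, S100a8 and S100a9 among them, so its fall is not separate evidence. The part of that sum in these results was not tested. S100a9, which with S100a8 forms the calprotectin of neutrophil cytosol, had an FPKM of 3792, 5933 and 3833 in DNCB and 379.6, 126 and 223 in scivMSC. S100a8 had an FPKM of 1713, 2661 and 1761 in DNCB and 159.5, 51.8 and 98.5 in scivMSC. For both genes the highest scivMSC library stayed below the lowest DNCB library by a wide margin. S100a9 fell by 4.22 log2 units (SE 0.38, adjusted p 2.24e-06) and S100a8 fell by 4.31 (SE 0.40, adjusted p 2.59e-06), and with TMM the log2 fold changes were -2.71 and -2.80. Of the 24 listed granule and secreted proteins, 20 were tested, 19 were called lower with total counts and 17 with TMM, and none was called higher. The median log2 fold change of the list was -3.90 against -1.56 for all genes, and -2.39 with TMM. Only 4 of the 20 had passed the filter through DNCB alone.

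The granule classes can be followed through their members. Several genes of the specific granules, which are filled late in the maturation of the neutrophil, were called lower with both scalings. The cathelicidin-related gene Ngp had an FPKM of 403, 602 and 349.7 in DNCB and 77.7, 28 and 43.2 in scivMSC and fell by 3.19. Lactoferrin (Ltf) fell by 3.05, cathelicidin (Camp) fell by 2.58, lipocalin 2 (Lcn2), which binds bacterial siderophores, fell by 3.55, and haptoglobin (Hp) fell by 4.06. The gelatinase Mmp9 of tertiary granules had an FPKM of 78.8, 116 and 76.5 in DNCB and 7.52, 2.04 and 4.74 in scivMSC and fell by 4.25 (SE 0.41, adjusted p 3.42e-06). The primary granule genes Mpo, Elane, Prtn3 and Ctsg, which are transcribed in bone marrow precursors, did not pass the filter in these 6 libraries. Lysozyme (Lyz2), which monocytes share, fell by 2.55 with total counts, and with TMM its log2 fold change of -0.91 was not called. Prok2, a secreted ligand of prokineticin receptors, had an FPKM of 3.19, 5.68 and 3.85 in DNCB and 0.0340, 0 and 0 in scivMSC. At most 12 counts, about 3 fragments, were found for it in each scivMSC library, which puts it at least 38.7-fold lower than in DNCB.

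The stefin A genes, a cluster of cysteine protease inhibitors on chromosome 16, had the lowest median of the 47 lists with either scaling. All 9 tested stefin and cystatin genes were called lower with total counts and 7 with TMM, with a median log2 fold change of -5.03, or -3.36 with TMM. 4 of the 9 had passed through DNCB alone. Stfa2l1 had an FPKM of 81.4, 145 and 94.9 in DNCB and 6.70, 4.11 and 6.00 in scivMSC and fell by 4.26 (SE 0.47, adjusted p 4.17e-06). Stfa3 (chromosome 16, 36450537 to 36455392) had an FPKM of 29.1, 46.7 and 30.3 in DNCB and 0, 0 and 0.320 in scivMSC and was at most 12 counts in each scivMSC library, at least 69.3-fold lower. These genes are near copies of each other, so the division of reads among them is uncertain. Members of the S100 family went separate ways. S100a6 fell by 4.16 and S100a11 fell by 3.93, while S100a10 and S100a1 had log2 fold changes of 0.66 and 0.57 that were not called with total counts and were called higher with TMM, at 2.35 and 2.20. Among the Schlafen genes, regulators of leukocyte growth, 5 of 6 were called lower with total counts and 5 with TMM. Slfn4 had an FPKM of 57.5, 72.5 and 47.7 in DNCB and 4.02, 1.54 and 3.43 in scivMSC and fell by 4.31, and only Slfn14 among the 6 was not called lower, at 0.68.

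Receptors through which neutrophils sense growth factors and attractants were lower as well. Csf3r, the receptor of granulocyte colony-stimulating factor, had an FPKM of 172, 253 and 168 in DNCB and 15.9, 3.60 and 12 in scivMSC and fell by 4.23 (SE 0.43, adjusted p 3.97e-06). Cxcr2, the chemokine receptor that draws neutrophils into tissue, had an FPKM of 73.6, 102 and 80.0 in DNCB and 7.83, 2.06 and 5.91 in scivMSC and fell by 4.02 (SE 0.40, adjusted p 3.97e-06). In both genes scivMSC replicate 2 was the lowest library, and neither gene's groups overlapped. Of the 21 tested receptors for type 1 and type 2 cytokines, 16 were called lower with total counts and 11 with TMM. The list median was -2.70, or -1.05 with TMM. 7 of the 21 had passed through DNCB alone, Il13ra1 among them. Of the 14 that passed in both groups, 9 were lower with total counts, and 5 were lower and 1 higher with TMM. Their median with TMM was -0.06. Chains that bind interleukins prominent in allergic skin were among those lower with both scalings. Il13ra1 fell by 4.45, Il4ra fell by 3.28 and Il17ra fell by 3.76. The lymphocyte receptor Il7r was not called with either scaling, at -0.82 with total counts and 0.73 with TMM. Without scivMSC replicate 1, Il7r was called lower, at -1.17.

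Among 10 tested receptors for bacterial peptides, complement and lipid mediators, 9 were called lower with total counts and 7 with TMM. Fpr2, a formyl peptide receptor, had an FPKM of 38.1, 55.1 and 40.8 in DNCB and 2.28, 0.760 and 0.808 in scivMSC and fell by 5.11 (SE 0.54, adjusted p 4.17e-06). Fpr1 fell by 5.13 and the complement C5a receptor C5ar1 fell by 4.05. Of 7 tested chemokine receptors, 6 were called lower with total counts (63.5% over all genes) and 3 with TMM (23.3% over all genes). Cxcr1 was at no more than 12 counts in each scivMSC library, at least 27.0-fold lower than in DNCB. Ccr1 fell by 3.52. The monocyte receptor Ccr2 fell by 2.51 and the marrow retention receptor Cxcr4 fell by 2.24, but neither was called with TMM, at -0.91 and -0.77. Ackr1, the chemokine-binding Duffy antigen of red cells, was not called with total counts, at 0.95, and was called higher with TMM, at 2.65.

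Toll-like receptors recognise microbial products at the cell surface and in endosomes, and Myd88 is the adaptor through which most of them signal. Myd88 had an FPKM of 17.3, 26.4 and 18.8 in DNCB and 1.59, 0.426 and 1.36 in scivMSC and fell by 4.21 (SE 0.47, adjusted p 4.77e-06). Tlr2 fell by 4.48, the lipopolysaccharide co-receptor Cd14 fell by 4.14 and Tlr4 fell by 3.75. Of the 14 tested receptors and adaptors, 13 were called lower with total counts and 12 with TMM, with medians of -3.61 and -2.12. The kinase Irak1 stood apart, at -0.35 with total counts and 1.18 with TMM, where it was called higher. 10 of the 14 had passed through DNCB alone, and 3 of the other 4 were called lower.

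All 15 tested genes of the inflammasome and interleukin 1 family were called lower with total counts and 14 with TMM. 12 of them had passed through DNCB alone, so that these low transcripts sank below an FPKM of 1 in all scivMSC libraries. The abundant member was Il1b, the cytokine released by the inflammasome, with an FPKM of 83.1, 97.9 and 72.3 in DNCB and 7.96, 2.01 and 6.31 in scivMSC. The groups were far apart, and Il1b fell by 3.96 (SE 0.43, adjusted p 4.17e-06). Genes acting on both sides of the pathway were lower with both scalings. The sensor Nlrp3 fell by 3.30, the protease Casp1 fell by 3.47, the pore former Gsdmd fell by 3.10 and pyrin (Mefv) fell by 5.08. The receptor antagonist Il1rn fell by 2.97 and the decoy receptor Il1r2 fell by 3.31.

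Of 9 NF-kappaB subunits and inhibitors, 8 were called lower with total counts and 5 with TMM. 6 of the 9 had passed the filter through DNCB alone, and of the 3 that passed in both groups 2 were lower with total counts, while 0 were lower and 1 was higher with TMM. Rela, the transactivating subunit, fell by 2.70, and the nuclear inhibitor Nfkbiz fell by 3.27. The inhibitor Nfkbia fell by 2.48 with total counts, but its log2 fold change of -0.92 with TMM was not called. The kinase Chuk was not called with total counts, at -0.49, and was called higher with TMM, at 1.04, just over the threshold, though not without DNCB replicate 2, DNCB replicate 3 or scivMSC replicate 1. All 8 tested genes of the JAK-STAT list were called lower with total counts (63.5% over all genes), and 3 with TMM (23.3% over all genes). The feedback inhibitor Socs3 had an FPKM of 16.4, 23.7 and 19.1 in DNCB and 1.90, 0.722 and 1.97 in scivMSC and fell by 3.69 (SE 0.41, adjusted p 4.77e-06). Stat3 fell by 2.99 and Stat6, which carries the signal of the allergic interleukins, fell by 2.93.

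Effector genes of phagocytes moved in the same direction. Fc receptors bind antibody-coated targets, and Tyrobp is an adaptor that passes on the signal of many activating receptors. Tyrobp had an FPKM of 150.2, 201 and 147 in DNCB and 16.6, 5.96 and 13.4 in scivMSC and fell by 3.79 (SE 0.40, adjusted p 4.17e-06). All 17 tested Fc receptors and proximal signalling genes were called lower with total counts and 11 with TMM, among them Fcgr4 at -3.86, Fcgr3 at -3.47 and the Src family kinase Fgr at -4.25 on the log2 scale with total counts. The NADPH oxidase makes superoxide in the phagosome. 7 of its 9 genes were called lower with total counts and 6 with TMM, all 9 had passed the filter in both groups, and the medians were -3.12 and -1.49. The catalytic subunit Cybb fell by 3.40 and the organiser Ncf1 fell by 3.26. The GTPase Rac2 of haematopoietic cells had an FPKM of 59.4, 93.2 and 60.3 in DNCB and 11.5, 4.77 and 8.25 in scivMSC, with no overlap of the groups, and fell by 3.12.

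Adhesion and motility genes were lower in larger part with total counts than with TMM. Itgb2, the shared chain of the leukocyte integrins, had an FPKM of 54.3, 72.3 and 49.7 in DNCB and 12.3, 6.17 and 9.88 in scivMSC and fell by 2.64. Its partner chain Itgam fell by 3.16. Of the 17 tested integrin and selectin ligand genes, 13 were called lower with total counts (63.5% over all genes). With TMM 9 were lower (23.3% over all genes) and 4 higher, the latter near the 22.9% over all genes. The integrin chain Itgb1, at -0.23 and 1.38, and the integrin activator Fermt3, at 0.14 and 1.8, were among those higher with TMM and not called with total counts. In the actin list 31 of 32 genes were called lower with total counts, but only 9 with TMM, and the medians were -2.24 and -0.71. Beta-actin (Actb) fell by 2.67 and the leukocyte actin-binding protein Lsp1 fell by 3.15. Thymosin beta 4 (Tmsb4x), the most abundant transcript of the list, had an FPKM of 1464, 1278 and 955 in DNCB and 1382, 1472 and 1204 in scivMSC, and these overlapping groups were not called, at 0.13, although TMM gave 1.82.

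Lipid mediator genes did not all move one way. The lipoxygenase gene Alox5 of leukocytes fell by 3.73 and Pla2g7, which degrades platelet-activating factor, fell by 3.89 with total counts, and both were called lower with TMM too, at -2.17 and -2.41. The platelet-type lipoxygenase Alox12 was not called with total counts, at 0.40, and was higher with TMM, at 2.08. In all, 5 of 8 leukotriene and prostanoid genes were lower with total counts (63.5% over all genes), and 2 were lower and 3 higher with TMM. 3 of the 8 had passed through DNCB alone. In glycolysis 13 of 16 genes were called lower with total counts (63.5% over all genes) and 7 with TMM (23.3% over all genes), where 2 were higher. The myeloid hexokinase Hk3 fell by 3.75 and the lactate exporter Slc16a3 fell by 4.23 with total counts, and with TMM they were called lower at -2.34 and -2.73. Pkm fell by 1.99 with total counts only.

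Monocyte genes were called lower for 15 of 17 with total counts and 12 with TMM. The monocyte marker sum above shares genes with this list, Csf1r and Ly6c2 among them, so its fall is not separate evidence. 11 of the 17 had passed through DNCB alone. Csf1r, the receptor of macrophage colony-stimulating factor, had an FPKM of 8.29, 13.9 and 8.74 in DNCB and 0.850, 0.249 and 0.550 in scivMSC and fell by 4.23 (SE 0.50, adjusted p 6.4e-06). Cd68 fell by 3.95 and Ly6c2, of the classical monocytes, fell by 2.56. Ms4a6d (chromosome 19, 11586604 to 11604849) was listed at 0 in the 3 scivMSC libraries and had an FPKM of 2.31, 5.04 and 3.88 in DNCB, at least 30.9-fold lower. F13a1, which platelets also hold, and the lysosomal protease Ctsb were not called with total counts, at -0.50 and -0.17, and were called higher with TMM, at 1.23 and 1.45. Of the 6 tested genes of eosinophils, basophils and mast cells, 4 were lower with total counts (63.5% over all genes) and 2 with TMM (23.3%). Without DNCB replicate 2 the first count was 2. The second was 1 when any of the 6 libraries other than DNCB replicate 2 was left out. 3 of the 6 had passed through DNCB alone, and of the 3 that passed in both groups 1 was lower with either scaling and 1 was higher with TMM. The histamine-forming enzyme Hdc had an FPKM of 14.5, 24.6 and 15.6 in DNCB and 1.66, 0.561 and 0.951 in scivMSC and fell by 4.11.

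Transcription factors that set blood lineages moved in both directions within a single list. Spi1 (PU.1), the master factor of myeloid cells, had an FPKM of 28.3, 43.5 and 30.1 in DNCB and 2.62, 1.01 and 3.25 in scivMSC and fell by 3.88 (SE 0.41, adjusted p 4.17e-06). The myeloid factor Cebpd fell by 3.72 and its relative Cebpb fell by 2.80. Gata1 (chromosome X, 7959260 to 7978071), the master factor of red cells and megakaryocytes, had an FPKM of 2.15, 2.39 and 1.95 in DNCB and 9.64, 10.8 and 8.24 in scivMSC and was higher in every scivMSC library (log2 fold change 2.13 with SE 0.33 and adjusted p 3.91e-05). Gfi1b, a repressor that acts with Gata1, had an FPKM of 0.585, 1.18 and 0.292 in DNCB and 3.27, 3.67 and 2.12 in scivMSC (log2 fold change 2.10 with SE 0.48 and adjusted p 0.00103). Tal1, their partner, went from 1.28 ± 0.429 to 2.68 ± 0.485 (mean ± SD, n = 3), or 1.06 on the log2 scale (adjusted p 0.0155), and did not pass without DNCB replicate 2 (adjusted p 0.0607), DNCB replicate 3 or scivMSC replicate 3. Of the 21 tested factors, 11 were called lower and 3 higher with total counts, and 4 lower and 8 higher with TMM. The other two groups had mean Gata1 levels of 2.30 in Solvent and 8.20 in scMSC, and mean Gfi1b levels of 1.04 and 3.46.

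Immediate early genes, which cells switch on within minutes of a stimulus, were lower for 17 of 19 members with total counts and 13 with TMM, with medians of -2.79 and -1.25. The survival factor Mcl1 had an FPKM of 65.1, 99.8 and 64.0 in DNCB and 9.98, 3.92 and 7.02 in scivMSC and fell by 3.45 (SE 0.36, adjusted p 4.17e-06), Fos fell by 3.10 and Junb fell by 3.10. Of the 11 tested glucocorticoid-responsive genes, 9 were lower with total counts and 6 with TMM. They include Anxa1, an anti-inflammatory phospholipid-binding protein abundant in neutrophils, with an FPKM of 82.9, 121 and 87.3 in DNCB and 9.17, 3.10 and 6.20 in scivMSC and a log2 fold change of -3.98, and the receptor itself, Nr3c1, at -3.23. Tsc22d3 (GILZ) fell by 2.38 with total counts only.

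**Figure D4:**
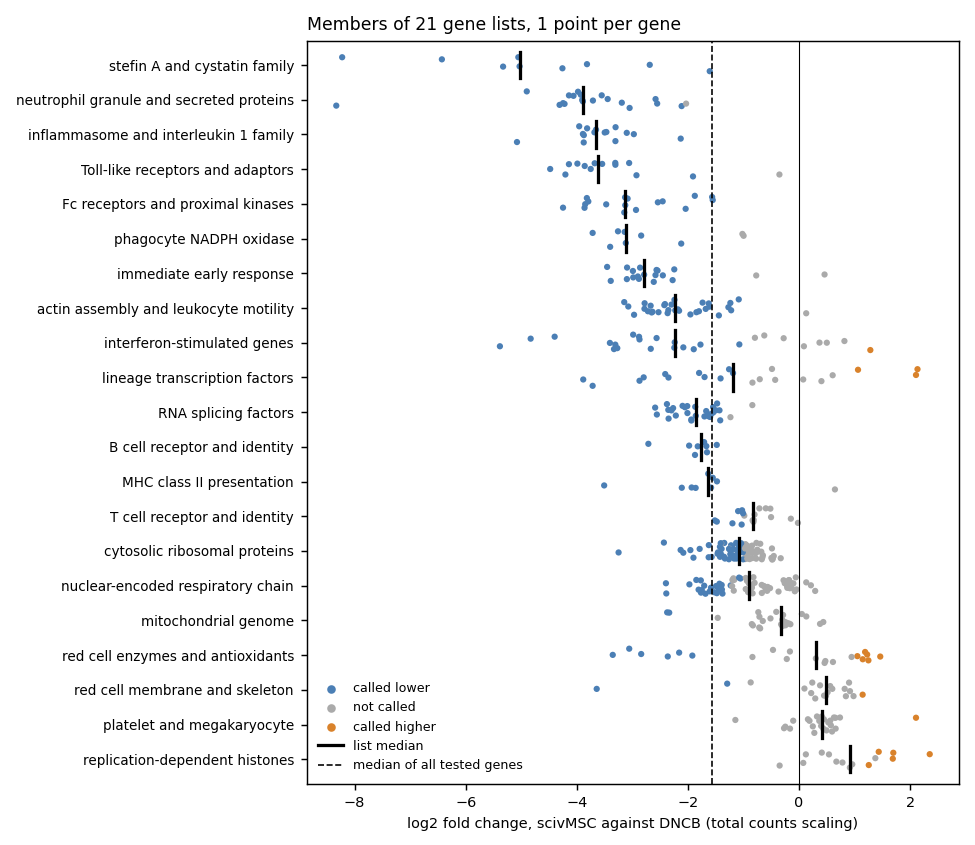
Log2 fold change of scivMSC against DNCB with total counts scaling (horizontal axis) for each tested member of 21 gene lists, coloured by its call. Short black lines are list medians, from -5.03 for the stefin and cystatin family to 0.91 for histones, and the dashed line is the median of all tested genes at -1.56, which TMM moves to -0.01.

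Interferon-stimulated genes did not move as a block. The Ifitm genes encode membrane proteins that hinder viral entry. Ifitm1 had an FPKM of 116, 181 and 146 in DNCB and 5.05, 2.37 and 3.17 in scivMSC and fell by 5.38 (SE 0.43, adjusted p 1.08e-06). Ifitm6 fell by 4.83, Ifitm2 fell by 4.40 and the RNA sensor Oas2 fell by 3.40, whereas Ifitm3 fell by 1.90 with total counts and was not called with TMM, at -0.15. In contrast Isg15, the ubiquitin-like modifier, had an FPKM of 82.4, 61.3 and 88.1 in DNCB and 103, 144 and 83.0 in scivMSC, and the groups overlapped. Isg15, viperin (Rsad2), Irf7 and Ifit1 were not called with total counts, at 0.50, 0.37, 0.09 and -0.28, and all were called higher with TMM. The exonuclease gene Isg20, which had an FPKM of 74.8, 72.3 and 99.3 in DNCB and 162, 279 and 161 in scivMSC, was called higher with both scalings (log2 fold change 1.28 with SE 0.25 and adjusted p 0.000273). Its log2 fold change was 0.98 without scivMSC replicate 2, just short of the fold threshold. Over the list, 18 of 26 genes were lower (63.5% over all genes) and 1 higher with total counts, and 12 lower and 6 higher with TMM.

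Lymphocyte genes lay near the median of all genes or above it, so their direction turned on the scale. T cell genes had a median of -0.83 with total counts and 0.70 with TMM, and 7 of 18 were called lower with the former and 2 higher with the latter. The number called lower with total counts moved to 14 when scivMSC replicate 1 was left out, to 2 when scivMSC replicate 2 was, and to 4 when DNCB replicate 1 or 2 was, and with TMM leaving out DNCB replicate 1 gave 5 higher calls and leaving out scivMSC replicate 2 gave 4. The T cell and B cell marker sums above are made largely of genes in the T cell and B cell lists, so they are not separate evidence. The receptor constant gene Trbc1 had an FPKM of 12, 12 and 10.7 in DNCB and 5.07, 2.52 and 4.51 in scivMSC. It was called lower with total counts, at -1.52, and stood at 0.04 with TMM. The co-receptor genes Cd4 and Cd8a were not called, at -0.50 and -0.60, or 0.93 and 0.95 with TMM, but without scivMSC replicate 1 Cd4 was called lower, at -1.22. All 8 tested B cell genes were called lower with total counts, 4 without DNCB replicate 2, and 1 with TMM (0 without scivMSC replicate 2), with medians of -1.77 and -0.14, and 3 of the 8 had passed through DNCB alone. The receptor component Cd79a fell by 1.71 with total counts and was at -0.09 with TMM. The tetraspanin Cd37, found on B cells and other leukocytes, was the member lower with both, at -2.71 with total counts.

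Antibody constant genes had a median of -0.38 with total counts, 0.22 with haemoglobin left out and 1.25 with TMM, and 3 of 9 were called lower with total counts while 4 were called higher with TMM. Without DNCB replicate 2 the first count was 1, and with TMM the second was 2 without DNCB replicate 3. The light chain gene Igkc had an FPKM of 53.0, 65.9 and 24.2 in DNCB and 41.9, 22.5 and 46.2 in scivMSC, with overlapping groups, and stood at -0.38 with total counts, not called, and at 1.25 with TMM, where it was called higher. Of 7 NK and cytotoxic genes, 3 were lower with total counts, 5 without scivMSC replicate 1, and 2 were higher with TMM, 0 when DNCB replicate 2 was left out and 1 when scivMSC replicate 1 was. Granzyme A (Gzma) was at -0.37 and 1.15. In antigen presentation, 8 of 9 class II genes were called lower with total counts, 5 without DNCB replicate 2, and 1 with TMM. The invariant chain Cd74 had an FPKM of 20.6, 40.0 and 15.3 in DNCB and 8.25, 5.77 and 11.8 in scivMSC. It fell by 1.55 with total counts, did not pass without DNCB replicate 2 (adjusted p 0.0608), and stood at 0.13 with TMM. The lysosomal protease Ctss fell by 3.51 and was lower with both. For class I, 11 of 16 genes were called lower with total counts (63.5% over all genes), and 1 lower and 1 higher with TMM. The 1 lower call with TMM was lost without DNCB replicate 3 or scivMSC replicate 2. The light chain B2m was not called, at 0.07, with 531 in scivMSC replicate 1 against 280.3 and 256 in the others. Without that library B2m stood at -0.35, and with TMM it was called higher, at 1.62.

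Genes of the general cell machinery were spread around the all-gene median. RNA splicing factors had medians of -1.86 and -0.33, with 28 of 30 called lower with total counts and 2 with TMM, where the count was 0 without scivMSC replicate 2 and 5 without scivMSC replicate 1. The helicase Ddx5 fell by 2.27 with total counts and was at -0.73 with TMM. Cytosolic ribosomal proteins had medians of -1.09 and 0.51. 44 of 78 were called lower with total counts (63.5% over all genes), and 28 without DNCB replicate 2. With TMM 1 was lower (23.3% over all genes) and 9 were higher (22.9% over all genes). The latter count was 1 when scivMSC replicate 2 was left out, 3 when DNCB replicate 2 was and 15 when scivMSC replicate 1 was. Rplp1, a stalk protein of the large subunit, had an FPKM of 779, 670.4 and 531 in DNCB and 337, 382 and 295 in scivMSC and a log2 fold change of -0.97 that missed the fold threshold, or 0.73 with TMM, and it was called lower without DNCB replicate 3 or scivMSC replicate 2. The ubiquitin fusion gene Rps27a fell by 3.25 and was lower with both scalings. Of 33 translation factors, 22 were lower with total counts (63.5% over all genes), and 8 higher with TMM (22.9% over all genes). Tpt1 stood at -0.02 with total counts and 1.68 with TMM.

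Proteasome subunits were lower for 29 of 37 with total counts, with 16 to 31 when any library of the 2 groups was left out, and for 1 with TMM (0 without DNCB replicate 3 or scivMSC replicate 2), where 5 were higher. The counts under 20 arose without scivMSC replicate 2, scivMSC replicate 3 or DNCB replicate 2. The activator Psme3 went against the list, with an FPKM of 71.7, 70.4 and 83.9 in DNCB and 103, 106 and 93.2 in scivMSC, a log2 fold change of 0.41 that was not called with total counts and 2.08 with TMM. Nuclear-encoded respiratory chain genes had medians of -0.90 and 0.64, with 23 of 69 called lower with total counts and 25 called higher with TMM. Without scivMSC replicate 1 the former count was 41. Transcripts of the mitochondrial genome had a median of -0.32 with total counts (-0.30 with its 4 members at 12 counts or fewer in each scivMSC library set to their bound), 0.22 with haemoglobin left out and 1.23 with TMM. 2 of 25 were lower with total counts, 9 without scivMSC replicate 1, and 12 were higher with TMM. The cytochrome oxidase transcript mt-Co1 had an FPKM of 1134, 1260.3 and 1189 in DNCB and 1291, 929 and 1006 in scivMSC, with a log2 fold change of -0.16 that was not called with total counts and 1.46 with TMM, where it was called higher. Cell cycle genes were sparse. 9 of 34 passed the filter. With total counts 5 were lower (63.5% over all genes) and 0 higher, and with TMM 0 were lower and 3 higher (22.9% over all genes). The higher calls with TMM numbered 2 to 4 when any library of the 2 groups was left out. Mki67, a marker of dividing cells, was at 0.08 with total counts and 1.61 with TMM, where it was called higher.

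Genes of red cells stood at the upper end of the range. None of the 4 globin genes tested was called with total counts, and Hba-a1, Hba-a2, Hbb-bs and Hbb-bt had log2 fold changes of 0.11, -0.25, 0.23 and 0.24. These transcripts make up most of each library, and total counts scaling holds their sum nearly fixed, whereas with TMM all 4 were called higher, at 1.78, 1.44, 1.89 and 1.92. The alpha globin genes Hba-a1 and Hba-a2 are near copies, as are the beta globin genes, and their reads may be divided arbitrarily. Alas2, the first enzyme of haem synthesis in red cells, had an FPKM of 4330.3, 4011 and 4954 in DNCB and 4950.1, 4578 and 4346 in scivMSC, and the groups overlapped. Alas2 and ferrochelatase (Fech), the last enzyme, were at 0.06 and 0.04 with total counts and were called higher with TMM, at 1.70 and 1.64. Of the 10 haem synthesis genes, 1 was called higher and 2 lower with total counts, and 7 higher with TMM. The single higher call was lost without DNCB replicate 1 or scivMSC replicate 1, and the mitochondrial Tmem14c, lower at -1.59, did not pass without scivMSC replicate 3. The number of lower calls ran from 0 without that library to 3 without scivMSC replicate 1, and without scivMSC replicate 2 there were 2 higher calls.

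Membrane and skeleton genes of the red cell had a median of 0.48 with total counts and 2.11 with TMM. 1 of 19 was called higher and 2 lower with the former, 16 higher and 1 lower with the latter. The anion exchanger Slc4a1 (band 3) had an FPKM of 47.5, 35.0 and 64.8 in DNCB and 72.9, 82.5 and 62.8 in scivMSC, overlapping, with a log2 fold change of 0.56, or 2.21 with TMM. The called member was tropomodulin 1 (Tmod1), at 1.14, and it was lost without DNCB replicate 1, DNCB replicate 2 or scivMSC replicate 1. The glucose transporter Slc2a1, which leukocytes use too, fell by 3.64 with total counts and stood at -2.16 with TMM, lower with both. The number of higher calls was 4 without DNCB replicate 3, 2 without scivMSC replicate 3 and 0 without scivMSC replicate 1.

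Enzymes and antioxidants of red cells held 6 of the 65 calls that were higher with both scalings. Gpx1, the selenium-dependent glutathione peroxidase, had an FPKM of 567, 521 and 859 in DNCB and 1809.8, 1832 and 1737 in scivMSC, with scivMSC values that were close to each other and above all of DNCB (log2 fold change 1.46 with SE 0.39 and adjusted p 0.0033). Catalase (Cat) had an FPKM of 35.1, 30.4 and 43.7 in DNCB and 90.1, 77.3 and 59.3 in scivMSC, and peroxiredoxin 2 (Prdx2) one of 33.4, 25.5 and 54.3 in DNCB and 99.5, 76.2 and 83.3 in scivMSC. Cat, Prdx2, the biliverdin reductase Blvrb and the glutathione synthesis subunit Gclm were called higher with both scalings, at 1.05, 1.19, 1.23 and 1.15 with total counts. Without DNCB replicate 2, Cat, Prdx2 and Gclm came just under the fold threshold, at 0.94, 0.97 and 0.96, and the list's higher calls went from 6 to 3 of 21. The list also held 6 lower calls, among them thioredoxin (Txn1), which is common to most cells, at -3.35, which was lower with TMM too. Bpgm, which makes the effector of haemoglobin's oxygen affinity, and carbonic anhydrase Car2 were not called, at 0.47 and 0.46, or 2.12 and 2.13 with TMM.

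The list of genes with which reticulocytes clear organelles and ubiquitin had 16 of 24 members called higher and 3 lower with TMM. With total counts 1 was higher and 7 were lower. That 1 was the exonuclease gene Isg20, already counted above among interferon-stimulated genes, so no other member of the list was called higher with total counts. The single higher call with total counts became 4 without DNCB replicate 3, 2 without scivMSC replicate 3 and 0 without scivMSC replicate 2. Ubiquitin B (Ubb) had an FPKM of 404, 474 and 540.4 in DNCB and 957, 1008 and 777 in scivMSC, every scivMSC library above every DNCB library, and a log2 fold change of 0.95 with an adjusted p of 0.00035, just under the fold threshold and over it without DNCB replicate 3 or scivMSC replicate 3. The mitophagy receptor Bnip3l and the ubiquitin ligase Trim58, at 0.37 and 0.64, likewise separated the groups and were not called with total counts. Iron genes split. The exporter ferroportin (Slc40a1), the phagosomal transporter Slc11a1 and haem oxygenase 1 (Hmox1), genes known from macrophages and other myeloid cells, were lower with both scalings, at -4.15, -3.73 and -3.38 with total counts. Ferritin light chain (Ftl1) had an FPKM of 3242, 2786 and 2857 in DNCB and 3226, 2457 and 3114 in scivMSC and was not called, nor were Fth1 and the transferrin receptor Tfrc, at -0.02, 0.36 and -0.10. With TMM these 3 genes were called higher, so that 6 of 13 iron genes were lower and 5 higher, the latter 3 without DNCB replicate 2. With total counts 7 were lower and 0 higher, and 5 of the 13 had passed through DNCB alone.

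Platelet and megakaryocyte genes were mostly at or above their DNCB level on the FPKM scale and were nearly all called higher with TMM. Of 25 tested, 1 was called higher and 0 lower with total counts, and 24 were called higher with TMM, with medians of 0.41 and 2.08. All 25 had reached an FPKM of 1 in both groups. Pf4, the platelet chemokine, had an FPKM of 235, 247 and 234 in DNCB and 345, 301 and 365 in scivMSC, which gave 0.49 on the log2 scale (SE 0.23, adjusted p 0.0656). Its groups did not overlap, yet the change was too small to be called. Ppbp had an FPKM of 281, 340.2 and 201 in DNCB and 281, 211 and 275 in scivMSC and Itga2b, the platelet fibrinogen receptor chain, 33.9, 39.8 and 24.2 in DNCB and 46.5, 39.3 and 37.1 in scivMSC, both with overlap. The partner chain Itgb3 was spread widely in scivMSC, at 3.73, 1.04 and 9.29 against 10.3, 14 and 6.81 in DNCB, at -1.15 with total counts and 0.45 with TMM, neither called, and was called lower without scivMSC replicate 3, at -2.12. The member called higher with total counts was Gfi1b, a nuclear factor, described above, and without DNCB replicate 2 a further member passed.

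Replication-dependent histone genes had the highest median of the lists, 0.91 with total counts and 2.56 with TMM. Of the 15 tested, 5 were called higher with total counts and all 15 with TMM, and none lower with either. The histone H4 gene H4c9 had an FPKM of 22.8, 27.9 and 21.6 in DNCB and 57.1, 57.9 and 58 in scivMSC (log2 fold change 1.25 with SE 0.28 and adjusted p 0.000894). H4c8 had an FPKM of 2.30, 1.44 and 1.92 in DNCB and 5.90, 5.91 and 6.58 in scivMSC and Hist1h4m of 3.75, 4.41 and 2.53 in DNCB and 12.9, 11.8 and 10.4 in scivMSC, with log2 fold changes of 1.69 and 1.70. In these 3 genes the scivMSC libraries all exceeded the DNCB libraries. Histone genes of a type are close copies, so the division of reads among them is uncertain, and their messages mostly lack poly(A) tails. Mki67 and the other tested cell cycle genes were not called higher with total counts, while 3 of the 9, Mki67 among them, were called higher with TMM.

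The 65 genes higher with both scalings included 62 whose libraries did not overlap, and 14 had a mean FPKM above 20 in scivMSC. The largest fitted change among them was in Bmp2 (chromosome 2, 133552159 to 133562885), a secreted growth factor of the TGF-beta superfamily, with an FPKM of 0.12, 0.166 and 0.0335 in DNCB and 1.8, 1.39 and 1.31 in scivMSC (log2 fold change 3.77 with SE 0.68 and adjusted p 0.000154). Bmp2 passed the filter only through scivMSC, as did 20 of the 4352 genes, so its direction is set by the filter. It was the single gene among 9 tested BMP and TGF-beta genes called higher, while 7 others were lower with total counts. 6 of the 9 had passed through DNCB alone, and of the 2 that passed in both groups 1 was lower with total counts and 0 with TMM. Of the lower genes 2 were lower with TMM, but 0 without scivMSC replicate 2 and 4 without scivMSC replicate 1 or 3. Id1, a target of BMP signalling, fell by 2.33 with total counts and was not called with TMM, at -0.66. Apol11b (chromosome 15, 77633946 to 77643286), an apolipoprotein L gene, had an FPKM of 3.14, 2.35 and 6.28 in DNCB and 26.6, 34.8 and 33.8 in scivMSC (log2 fold change 3.01 with SE 0.51 and adjusted p 9.85e-05). It has close relatives whose reads it may share. Mean levels in the other two groups were 0.112 in Solvent and 1.58 in scMSC for Bmp2, and 2.85 and 7.35 for Apol11b.

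Further genes higher with both scalings lay outside the lists. Smoothelin (Smtn), an actin-binding protein of muscle, was at 1.78, the sphingolipid regulator Ormdl3 at 1.42, the cold shock protein gene Ybx3 at 1.17 and the cyclin-dependent kinase inhibitor Cdkn2b, which passed the filter only through scivMSC, at 1.95. Ormdl3 was abundant, with an FPKM of 13, 13.7 and 8.30 in DNCB and 36.5, 27.4 and 30.3 in scivMSC, and Ybx3 more so, at 51.6, 54.8 and 92.6 in DNCB and 171, 113 and 164 in scivMSC. The phosphatase Cdc25b, at 1.04, dropped under the fold threshold without DNCB replicate 1, DNCB replicate 2 or scivMSC replicate 2. The ribosomal pseudogenes Rps13-ps1 and Rps13-ps2 and the ferritin pseudogene Ftl2-ps were also called higher, at 2.24, 2.04 and 1.81, with reads that their parent genes may supply. The fatty acid elongase Elovl5 was decided by a single library. Its FPKM was 2.70, 2.77 and 4.96 in DNCB and 72.7, 0.675 and 0.810 in scivMSC, and the call rested on scivMSC replicate 1, without which the log2 fold change was -2.23.

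**Figure D5:**
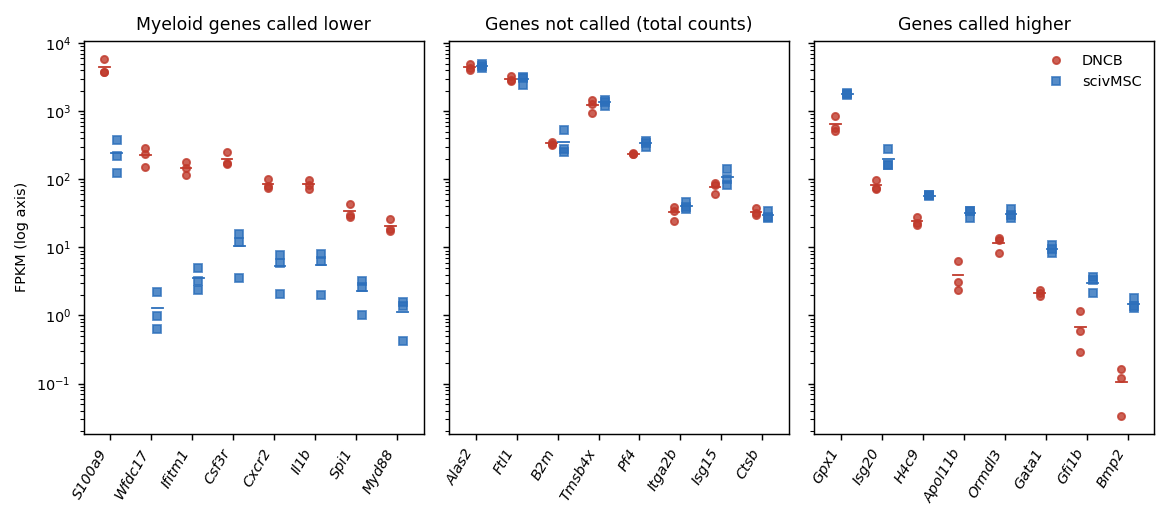
FPKM (vertical log axis) of 24 genes in each DNCB library (circles) and scivMSC library (squares), with short lines for group means. The 8 myeloid genes on the left separate the groups with scivMSC below, the 8 genes in the middle were not called with total counts and were called higher with TMM, and the 8 genes on the right, from Gpx1 to Bmp2, separate the groups with scivMSC above.

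At the other end, the largest falls among genes of an FPKM of at least 5 in DNCB were, beside Stfa3 and Cstdc6, in Wfdc17, Mrgpra2a, Kctd12 and several short noncoding RNAs. Wfdc17, a small secreted whey acidic protein of myeloid cells, had an FPKM of 154, 288 and 238 in DNCB and 2.20, 0.630 and 0.989 in scivMSC and fell by 7.45 (SE 0.67, adjusted p 2.24e-06). The receptor gene Mrgpra2a fell by 6.65. Kctd12 had an FPKM of 4.88, 8.73 and 6.73 in DNCB and 0, 0.306 and 0 in scivMSC, with 2 libraries listed at 0, and fell by 6.06 with an SE of 1.98 (adjusted p 0.0134), but was not called with TMM. Apoc2, a lipoprotein component, was listed at 0 in the 3 scivMSC libraries and had an FPKM of 2.39, 2.00 and 1.61 in DNCB, at least 7.76-fold lower. In all, 34 genes were at or under 12 counts in each scivMSC library. The study named genes for blood in its text and figure captions and reported their levels from these same samples. Of the 30 of them that were tested, all 30 were lower with total counts and 26 with TMM. Their direction is not independent evidence.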

How the data were processed

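Blood RNA of 3 scivMSC and 3 DNCB libraries was compared, with libraries grouped by their labels. Members and gene lists were chosen with earlier results of these data known. The authors deposited an estimated count and an FPKM value per gene and library, with no unassigned rows. The submitters' processing notes list HISAT2 2.0, StringTie 1.3.0 and Bowtie 0.12.2. They name the mouse build mm8, but 96.3% of 21469 matched symbols overlap their RefSeq positions on GRCm38.p6, so coordinates are those of the deposited table. Whether counting used strand is not given in the sources used here. Of counts from 1 to 12, 29.0% were exactly 4, so a fragment may be worth 4 counts, and 12 counts (3 fragments) in each library was taken as the floor, which covers counting error only.

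Counts were rounded and tested with edgeR 4.0.16 (quasi-likelihood, R 4.3.3) on genes that reached an FPKM of 1 in 3 of the 6 libraries. The fit took all 12 libraries, with a mean for each of 4 groups, scaled by total counts or, alternatively, by TMM. Calls needed a Benjamini-Hochberg adjusted p under 0.05 and a fold change over 2. Standard errors were derived from the F statistic. DESeq2 1.42.0 and limma 3.58.1 on log2(FPKM + 1), where folds of low genes are understated, were alternatives. On simulated counts for these 4352 genes, 97 of 100 genes changed 8-fold or more and 42 of 100 changed 2- or 4-fold were called, with 9 false calls. Genes changed exactly 2-fold lie on the fold threshold of a call, so the 42 partly reflects that threshold. The simulation changed few genes, as many up as down, and gave all others the same mean share in every group. It held no shift of most genes as seen here, so it cannot show how reliable the total counts calls are.

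Genes named are, per list, the member with the highest mean FPKM and the largest called change without overlap in each direction, and over all genes the 8 largest called changes in each direction, without overlap, with a mean of 5 or more in the higher group and no systematic name. The others were picked with their values in view, and some genes under this rule are not reported here.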

Additional observations from a re-analysis of the deposited data

How the results depend on the processing

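Of 4352 genes, 65 were called higher and 2763 lower, 2828 in all, with total counts. The split was 997 and 1013 with TMM, 1048 and 999 with DESeq2, 933 and 1008 with TMM on the 6 libraries alone, and 308 and 2140 with haemoglobin left out (median log2 fold change -1.02). limma on log2(FPKM + 1) gave 33 and 1954. Without a filter 107 and 5680 (5787 in all) of 21791 genes were called, and at a mean FPKM of at least 5, 22 and 540 (562 in all) of 1119. The cause of these shifts was not tested beyond the scale and the number of genes tested. With any library left out the calls numbered 2547 to 3141, with 49 to 78 higher and 2479 to 3092 lower. With TMM they numbered 1811 to 2221 when any of the 6 libraries was left out. The higher ones numbered 984, 895 and 986 without DNCB replicates 1, 2 and 3 in turn and 1075, 885 and 1026 without those of scivMSC, and the lower ones 1009, 1023 and 1017 and 1146, 926 and 1054. These fits and the TMM fit of 6 libraries were chosen after seeing the data. The haemoglobin difference was 4.79 to 7.36 points with any library left out. Its share over summed FPKM was 92.5% in DNCB and 94.9% in scivMSC, 2.43 points apart. With TMM, 592 of the 2763 genes lower with total counts had a log2 fold change above 0. Among named genes, those that changed sign were Cd74, Trbc1 and Cdkn2d, at 0.13, 0.0398 and 0.0987 with TMM and 0.18, 0.0685 and 0.15 with DESeq2, and Elovl5, which ran from -2.23 without scivMSC replicate 1 to 3.40 without scivMSC replicate 2. Same-numbered replicates did not deviate together (correlations -0.0548, -0.325 and -0.0373). These 3 values show no pairing by number, but they mix in shifts of whole libraries and cannot exclude one. A replicate block called 63 higher and 2844 lower (2907 in all). DESeq2 with total scaling, a pseudocount of 0.1, a filter over 12 libraries and a fit of the 6 libraries alone gave 2844, 2926, 3506 and 2680 calls. Depth limits the low genes. At about 4 counts per fragment, 12 counts are 3 fragments, and scivMSC replicate 2 had 11806 genes with at least 4 counts against 15604 or more in DNCB.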

Other observations

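The KEGG pathways that the deposited table assigns to genes were described in the same way, for the 202 pathways with at least 15 tested genes. The lowest median belonged to Staphylococcus aureus infection, a pathway built of formyl peptide receptors, complement and Fc receptors, at -3.11, with 18 of 18 genes called lower with total counts and 13 with TMM. Cytokine-cytokine receptor interaction followed at -2.94, with 50 of 61 lower with total counts, and 34 lower and 5 higher with TMM. The TNF signaling pathway had a median of -2.61, with 34 of 42 lower with total counts, and 23 lower and 8 higher with TMM. In these pathways, in the order given, 3 of 18, 27 of 61 and 16 of 42 genes had passed the filter through DNCB alone. The highest medians were in ECM-receptor interaction, at 0.16, whose tested genes include platelet adhesion receptors, in Malaria, at 0.12, and in Systemic lupus erythematosus, which holds the histones, at -0.38. With TMM their medians were 1.8, 1.77 and 1.22, with 13 of 19, 11 of 18 and 18 of 32 genes called higher. Pathways share genes, and the myeloid receptors described above recur in several of them.

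By kind of gene as the table lists it, 967 of 3798 protein-coding genes were lower with both scalings and 53 higher with both. Over all 4352 tested genes these numbers were 1013 (23.3%) and 65 (1.49%). Among long noncoding genes 23 of 98 were lower with both, 5 were higher with both and 44 were higher with TMM only. For pseudogenes the numbers were 14 of 356, 5 and 101, with reads that may come from their parents. Segments of antibody and T cell receptor genes were lower with both in 0 of 45 and higher with TMM in 12. Of small noncoding genes 9 of 43 were lower with both scalings, 14 were higher with TMM only and 2 higher with both. Among those lower with both were RNAs made by RNA polymerase III. Rn7s2, Rn7sk and Rpph1 were among the largest falls under the naming rule, and Rn7s1 was chosen after its values were seen. Rn7s2 had an FPKM of 64.8, 464 and 74.0 in DNCB and 4.11, 2.69 and 0 in scivMSC. The signal recognition particle RNA Rn7s1 had an FPKM of 139, 432 and 154 in DNCB and 4.87, 2.91 and 5.45 in scivMSC, and Rn7sk, a regulator of transcription elongation, of 23.8, 62.2 and 13.8 in DNCB and 0.786, 0.299 and 0.159 in scivMSC. The ribonuclease P RNA Rpph1 had an FPKM of 7.98, 11 and 8.81 in DNCB and 0.102, 0 and 0 in scivMSC and was at no more than 12 counts in each scivMSC library, at least 14.1-fold lower. Mean levels ± SD (n = 3) in Solvent and scMSC were 205 ± 45.9 and 163 ± 199 for Rn7s1, and 30.9 ± 10.1 and 22.8 ± 31.0 for Rn7sk. For Rpph1 they were 7.82 ± 0.855 and 6.16 ± 5.33. The scMSC libraries thus differed widely among themselves, and their means place that group poorly. In the Bcl2 family, 4 of 6 genes were lower with total counts (63.5% over all genes), and 1 lower and 2 higher with TMM. The red cell survival gene Bcl2l1 was among the latter, at 0.48 with total counts and 2.20 with TMM. In the list of apolipoprotein L and lipid carrier genes, 3 of 4 were lower (63.5% over all genes) and 1 higher with total counts, and 2 lower and 1 higher with TMM. The S100 list had 5 of 8 genes lower with total counts (63.5% over all genes), and 4 lower and 3 higher with TMM. Of the 3551 tested genes in none of the lists, 813 were lower and 46 higher with both scalings, near the shares over all genes given above. The resistin-like gene Retnlg, at 690.0 in DNCB and 31.4 in scivMSC, was among the former, and so was the neutrophil surface protein Ly6g, which fell by 4.30.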
